A study of Mus musculus with 11 samples.

Results

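Sfi1 on chromosome 11, Rn18s-rs5 on chromosome 17 and Hjurp on chromosome 1 are the 3 genes described here, each lying under a peak at least 6 kb wide in the list of sites pulled down with an antibody to GFP after digestion of chromatin with micrococcal nuclease (MNase). They were chosen by this width (peak end minus peak start plus 1), so widths and the presence of an MNase peak are given as a description and carry no test. Their 3 wide peaks stand among 2840 MNase peaks in all, of which 11, or 0.387%, were 6 kb wide or more. The other 8 lay at developmental regulators, and the 3 genes are set against these.

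The study mapped Smchd1, an SMC-like chromatin protein needed to keep genes of the inactive X chromosome and of some autosomal clusters silent, in neural stem cell lines that were made from embryos of C57BL/6 background. Of its 11 libraries, 5 used MNase: 1 male and 1 female library from cells homozygous for the Smchd1 GFP fusion knock-in allele, 1 male and 1 female from wild-type cells without the tag, and 1 from female whole cell extract. The other 6 used sonication and came from female cells, with 2 libraries of the homozygous knock-in, 2 of wild-type cells and 2 of whole cell extract. Each experiment is held in 1 pooled list of peak positions, so signal per library, depth and the spread between replicates are unknown for every peak, and no knock-in value can be set against a wild-type value. The labelled cell type could not be checked against markers, since the lists hold positions and no expression values.

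Sfi1 encodes a protein that binds centrin at centrosomes, as known from yeast and human cells. Hjurp encodes the chaperone that delivers the histone variant CENP-A to centromeres. Rn18s-rs5 is named as a sequence related to 18S ribosomal RNA, the RNA of the small ribosomal subunit, which is transcribed by RNA polymerase I from tandem arrays of repeated units. In a pull-down, a sequence that has more copies in the cells than in the assembly gathers reads from all its copies at 1 place, which is why such loci are read with care. Repeat content and copy number were not measured in the files used here, and their part in the wide peaks was not tested. No peak was removed for lying in repeated sequence.

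The promoter of Hjurp, on the minus strand, lay wholly under its wide peak and was the sequence of the 3 genes matched by symbol in the RefSeq promoter table (GRCm38.p6, the assembly of mm10). It is shown with the promoters of Hoxd10 and Hoxa9, 2 homeobox genes whose promoters lay under wide peaks of 12.9 and 13.8 kb. Each window runs from 250 bases before to 50 bases after the annotated start, 5′ to 3′ on the strand of the gene, and capitals mark CG dinucleotides. The Hjurp window is chr1:88277530-88277829 on the minus strand, the Hoxd10 window chr2:74691641-74691940 on the plus strand, and the Hoxa9 window chr6:52227321-52227620 on the minus strand.
Hjurp: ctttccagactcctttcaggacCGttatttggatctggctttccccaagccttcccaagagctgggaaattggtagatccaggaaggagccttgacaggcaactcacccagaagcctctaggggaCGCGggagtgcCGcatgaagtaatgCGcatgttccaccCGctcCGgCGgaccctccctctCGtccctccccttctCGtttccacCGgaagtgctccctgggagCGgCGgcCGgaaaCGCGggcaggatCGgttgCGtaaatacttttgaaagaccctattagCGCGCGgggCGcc
Hoxd10: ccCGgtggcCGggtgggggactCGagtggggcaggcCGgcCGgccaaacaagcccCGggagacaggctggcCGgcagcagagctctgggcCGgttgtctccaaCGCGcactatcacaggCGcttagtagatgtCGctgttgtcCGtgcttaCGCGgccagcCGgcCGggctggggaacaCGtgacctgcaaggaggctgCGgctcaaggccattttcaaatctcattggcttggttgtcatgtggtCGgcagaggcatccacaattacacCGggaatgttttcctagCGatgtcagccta
Hoxa9: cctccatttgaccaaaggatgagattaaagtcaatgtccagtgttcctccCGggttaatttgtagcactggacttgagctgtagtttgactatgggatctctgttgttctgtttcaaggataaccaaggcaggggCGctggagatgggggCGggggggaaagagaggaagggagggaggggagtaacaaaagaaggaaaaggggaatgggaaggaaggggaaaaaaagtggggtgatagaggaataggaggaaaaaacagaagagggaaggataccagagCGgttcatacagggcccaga

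The Hjurp promoter held 22 CG dinucleotides in 300 bases, and 76.9% of the 32851 promoters in the table held fewer. Its GC content was 59.7%. The Hoxd10 promoter also held 22 CG, at a GC content of 62.7%, while the Hoxa9 promoter held 4 at 49.7%. Over the 15 promoters that lay wholly under wide peaks at developmental genes, the number ran from 2 to 49 with a median of 12, against a median of 7 over all promoters in the table. The Hjurp window fell inside this range, as most promoters would. Of all promoters in the table, 14.1% held fewer CG than its lower end, at Mira, and 99.0% fewer than its upper end, at Gm38462. No stretch of 20 bases in the Hjurp promoter, read on both strands, occurred in the promoter of another gene in the table, and the same held for 8 of the 15 other promoters. Windows that overlap in the genome, as those of Hoxa9 and Gm52902 do, also counted as sharing a stretch. This comparison covers promoter windows only and not the rest of the peak.

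**Figure D1:**
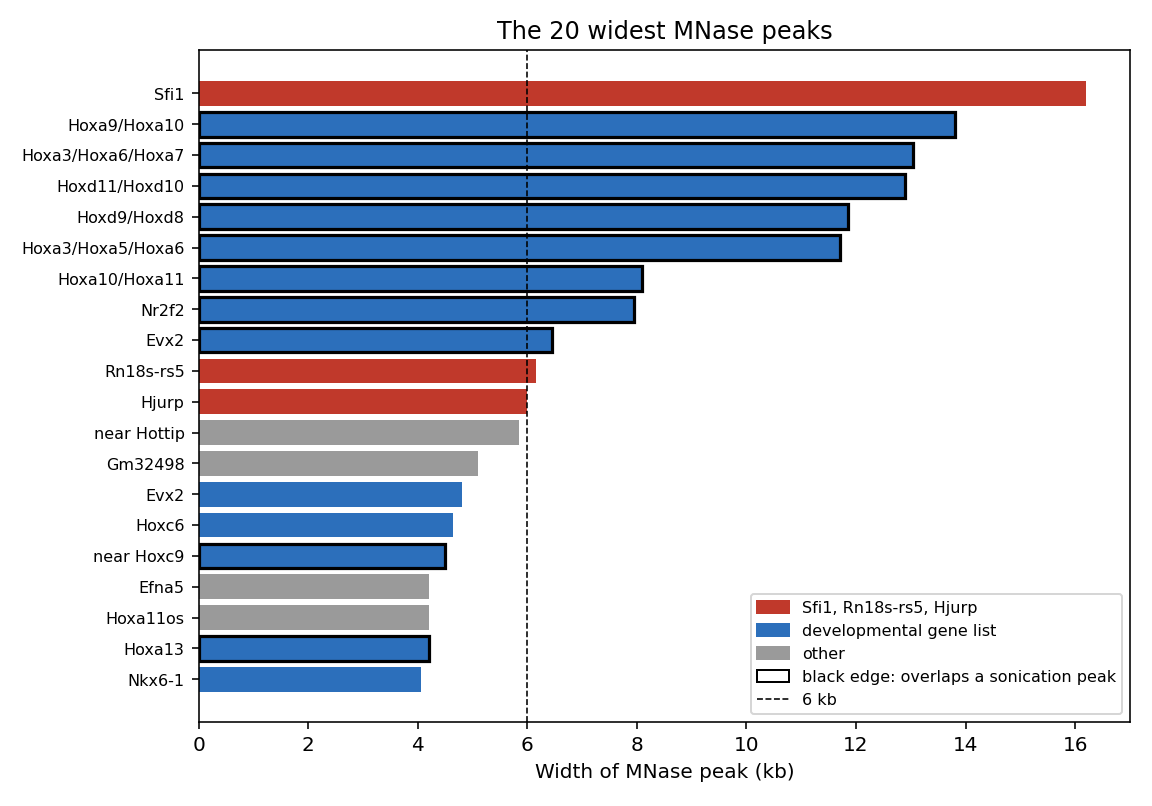
Width in kb of the 20 widest MNase peaks, 1 bar per peak from the widest at the top, named by the genes they overlap or lie nearest to; red bars are Sfi1, Rn18s-rs5 and Hjurp, blue bars overlap or lie nearest to genes of the developmental list, and a black edge marks overlap with a sonication peak. The 3 red bars, of 16.2, 6.15 and 6.00 kb, have no black edge, while all 8 blue bars past the dashed line at 6 kb have one.

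Sfi1 (gene 78887, protein-coding) spans 71.5 kb, from 3131850 to 3203347 on chromosome 11 in mm10. Its MNase peak ran from 3184051 to 3200250, 16.2 kb, and was the widest in the list. All of it lay inside the gene, where it covered 22.7% of the annotated span and ended 3097 bp short of the end with the higher coordinate. The pseudogene Fau-ps2, from 3196390 to 3196727, lay entirely under the peak. Exons and introns are not stated, since the gene table gives spans only.

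The other MNase peaks nearest to Sfi1 lay towards the chromosome start. Within 50 kb of the gene there were 2 further MNase peaks, of 450 bp from 3100051 to 3100500 and of 1350 bp from 3101101 to 3102450, 83.6 and 81.6 kb from the wide peak. The nearer was closer than the median distance of 125.3 kb from an MNase peak to its nearest neighbour over the whole list. Both lay beyond the pseudogene Pisd-ps1, in sequence close to the 3 Mb gap with which the assembled chromosome opens. Apart from Fau-ps2, the other genes within 50 kb, among them Eif4enif1, which encodes a transporter of the translation factor eIF4E, and Drg1, a GTP-binding protein gene, had no MNase or sonication peak over them. No sonication peak lay within 50 kb of Sfi1, and the nearest, of 450 bp from 3279901 to 3280350, was 76.6 kb from the gene.

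Rn18s-rs5 (gene 110183) is annotated as a pseudogene of 1849 bp, from 39846354 to 39848202 on chromosome 17. Its MNase peak, from 39842851 to 39849000, was 6.15 kb wide and 10th in width. It covered the whole gene, which made up 30.1% of the peak, and reached 3503 bp past the gene at the lower coordinate and 798 bp past it at the higher. The first 889 bp of AY036118, a long non-coding RNA record of 50.3 kb and the one other annotated gene within 50 kb, also lay under it. Most of the peak thus lay in sequence to which the gene table assigns neither record. Rn18s-rs5 had the emptiest surroundings of the 3 genes. Its nearest other MNase peak was 2080.7 kb away and its nearest sonication peak 2016.6 kb away, where the median distance between an MNase peak and its neighbour was, as above, 125.3 kb and the 90th percentile 1086.9 kb. Chromosome 17 held 72 MNase peaks and 57 sonication peaks.

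Hjurp (gene 381280, protein-coding) spans 18.8 kb, from 88258856 to 88277644 on chromosome 1. Its MNase peak, from 88273351 to 88279350, was 6.00 kb wide and 11th in width. It covered 22.9% of the gene, over the end at which transcription starts, and ran 1706 bp beyond it, so that 71.6% of the peak was inside the annotated span. No other MNase peak lay within 50 kb of the gene, and the nearest, of 450 bp, was 383.0 kb from the gene and 381.3 kb from the wide peak. Neighbouring genes within 50 kb without an MNase peak over them were Mroh2a, Trpm8, which encodes the cold-sensing ion channel, the predicted gene Gm51639, and 9 overlapping records of the Ugt1a locus, which encodes enzymes that conjugate bilirubin and drugs. The nearest sonication peak, of 300 bp from 88185151 to 88185450, lay in the Ugt1a locus 73.4 kb from Hjurp, outside the 50 kb window.

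**Figure D2:**
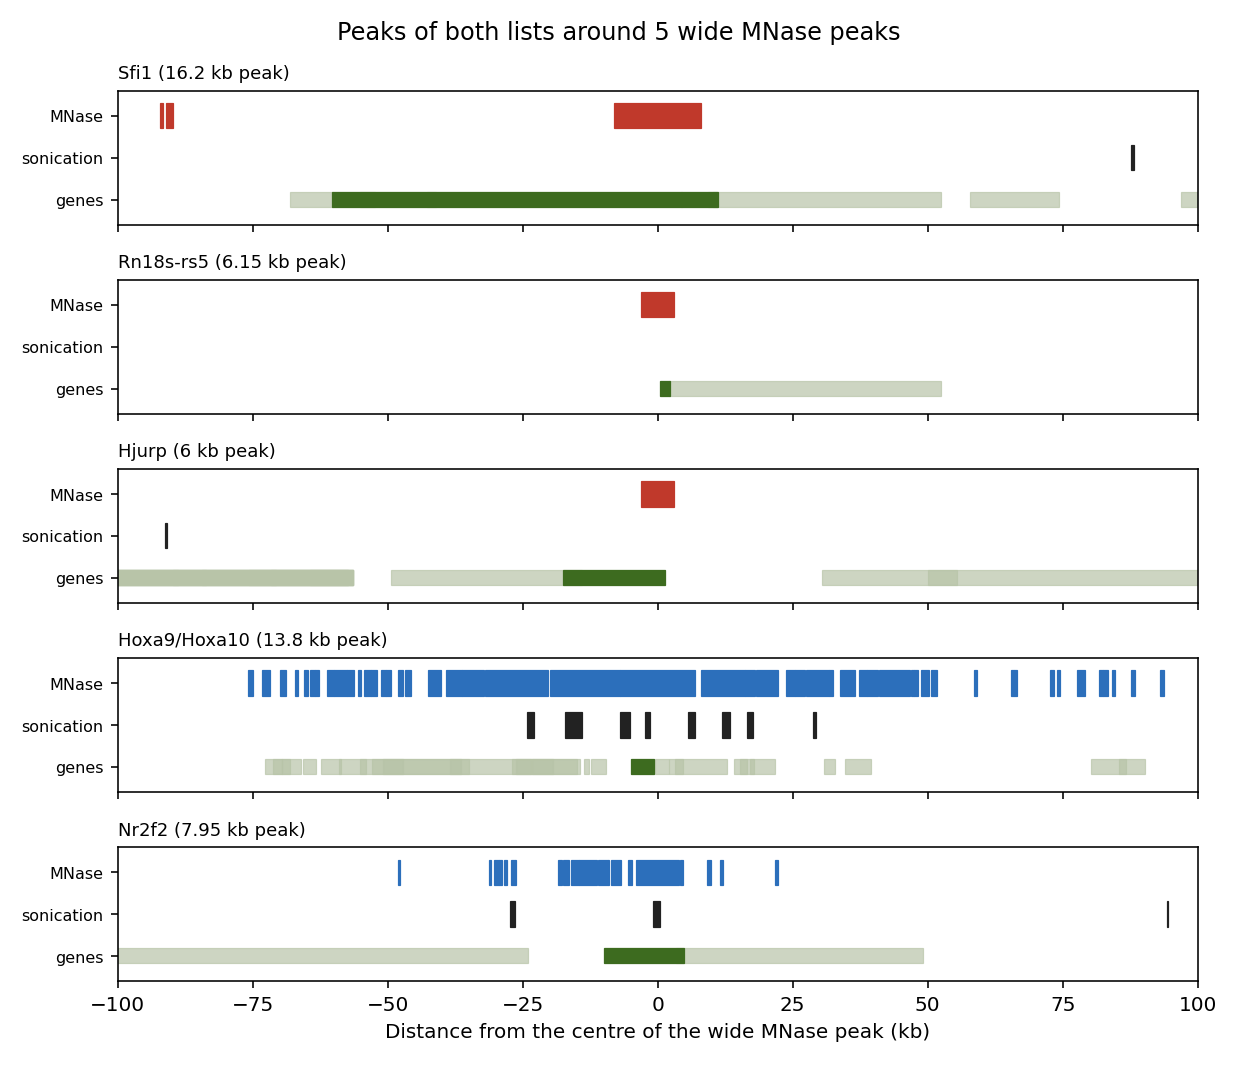
MNase peaks (red at Sfi1, Rn18s-rs5 and Hjurp, blue at Hoxa9/Hoxa10 and Nr2f2), sonication peaks (black) and RefSeq gene spans (dark green for the named gene, pale green for others) up to 100 kb on either side of 5 wide MNase peaks; the horizontal axis is the distance in kb from the centre of the wide peak. The wide peaks in the 3 upper rows stand alone or nearly so, with sonication peaks near the edge of the row at Sfi1 and Hjurp and none at Rn18s-rs5, while those in the 2 lower rows stand among many MNase peaks and lie over sonication peaks.

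The sonication list was not used to choose the genes. None of the 3 wide peaks overlapped a sonication peak by 1 bp or more (0 of 3), whereas all 8 wide peaks at developmental genes did (8 of 8). Over the whole MNase list, 1.65% of peaks overlapped a sonication peak, but this share is not matched for width. The share rose from 0.185% of peaks of 300 bp to 11.7% of those from 1650 bp to under 3 kb. Of the 23 peaks from 3 kb to under 6 kb, 3 overlapped a sonication peak. All 11 peaks of 6 kb or more belong to the groups compared, so no background of that width shows which count departs. The 3 genes are too few to tell 0 of 3 from the narrower classes, while 8 of 8 was above the share in each. Peaks of 1 pooled list are not independent, so no interval is given for these counts. The 8 peaks lie in 3 loci, 4 of them in the HoxA cluster on chromosome 6, 3 in and beside HoxD on chromosome 2 and 1 at Nr2f2 on chromosome 7, so they are not 8 separate sites, and no test was made between the groups.

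Under the 8 developmental peaks lay 12 sonication peaks, each with its full length inside the MNase peak. The 13.8 kb peak over Hoxa9 and Hoxa10 held 3, of 1800, 900 and 1200 bp, and the 11.9 kb peak over Hoxd9 and Hoxd8 also held 3. At Nr2f2, which encodes the nuclear receptor COUP-TFII, the 7.95 kb peak held 1 of 1200 bp, and at Evx2, a homeobox gene beside HoxD, the 6.45 kb peak held 1 of 900 bp. No sonication peak anywhere reached 6 kb, the widest being 3.15 kb, so width in that list cannot be matched to width in the MNase list.

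The 3 wide peaks also stood apart from other MNase peaks. Within 50 kb of the wide peak itself there were 0 other MNase peaks at each of the 3 genes, against 15 to 31, with a median of 27, around the wide peaks at developmental genes. These neighbours added 17.4 to 84.9 kb of peak sequence around the developmental peaks and 0 kb around the 3 genes. The 4 wide peaks in HoxA and the 3 in and beside HoxD count one another and share neighbours, so these values are not separate counts. Standing alone was common in the list as a whole, since 59.7% of MNase peaks had no other within 50 kb. It was less common among wide ones: of the 23 peaks from 3 kb to under 6 kb, 2 stood alone (8.7%), and 3 overlapped a sonication peak (13%). Many of these 23 are pieces of the HoxA, HoxC and HoxD clusters that adjoin or nearly adjoin the next peak, so they could not stand alone. The 8.7% thus depends on where the list splits those clusters.

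**Figure D3:**
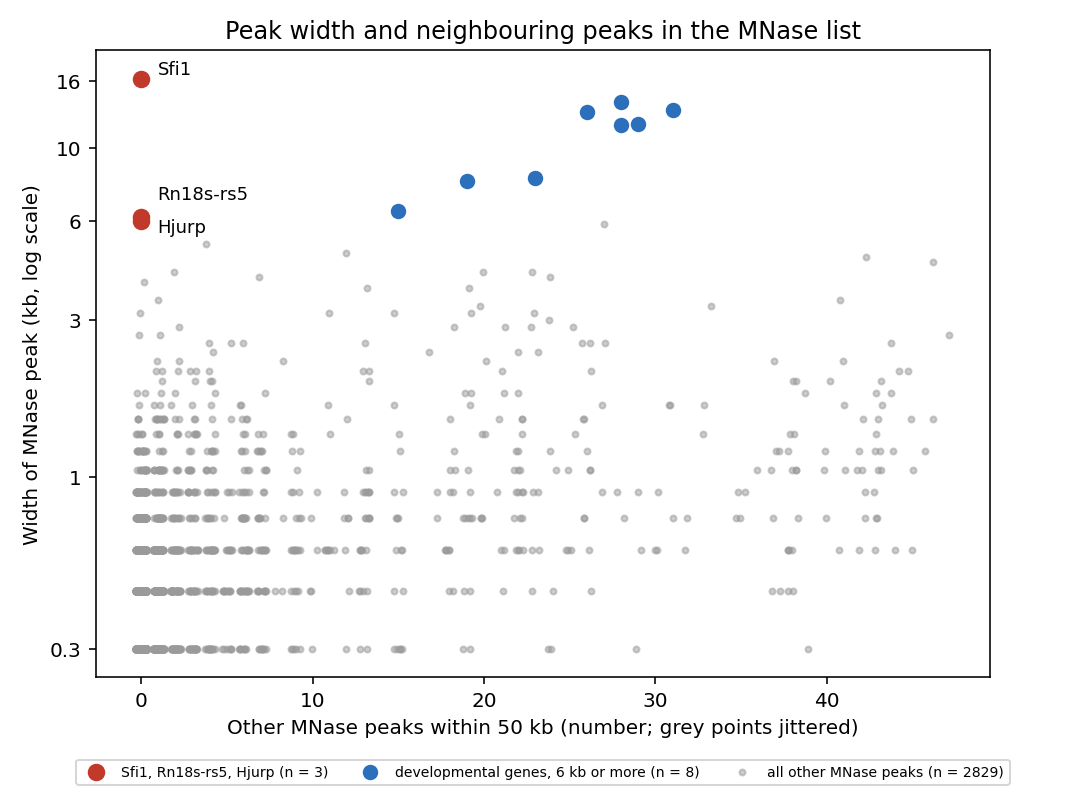
Width in kb (log axis) of each MNase peak against the number of other MNase peaks within 50 kb of it; red points are Sfi1, Rn18s-rs5 and Hjurp, blue points the 8 peaks of 6 kb or more at developmental genes, and grey points the other 2829 peaks, jittered sideways. The red points, chosen by width, lie at 0 neighbours above all other peaks there, and the blue points between 15 and 31.

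Among the 1696 MNase peaks without a neighbour within 50 kb, those at Sfi1, Rn18s-rs5 and Hjurp were the 3 widest. They were chosen by width, and all other peaks of 6 kb or more had neighbours. Their rank and share of bases among peaks that stood alone thus follow from the choice. The median width of all peaks without a neighbour was 450 bp, and the peaks at the 3 genes accounted for 3.58% of the bases under such peaks. The next in width, of 3.90 kb from 19415551 to 19419450 on chromosome 14, overlapped no annotated gene and lay 10458 bp from the predicted gene Gm9637. It was followed by one of 3.15 kb over Alyref2, a gene of an mRNA export adaptor, and one of 2.70 kb over Tshz3, a zinc-finger transcription factor gene. None of these 3 overlapped a sonication peak, as was usual for peaks that stood alone, of which 10 of 1696 (0.59%) did.

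Just inside the limit of 6 kb were Rn18s-rs5 at 6.15 kb and Hjurp at 6.00 kb. Just outside were a peak of 5.85 kb nearest to Hottip, a long non-coding RNA next to Hoxa13, with 27 other MNase peaks within 50 kb, one of 5.10 kb in the predicted gene Gm32498 with 4, and one of 4.80 kb at Evx2 with 12. None of these 3 overlapped a sonication peak. Rn18s-rs5 and Hjurp thus differed from the widest peak left out by 300 and 150 bp, or 2 steps and 1 step of the 150 bp grid on which all peaks lie.

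**Figure D4:**
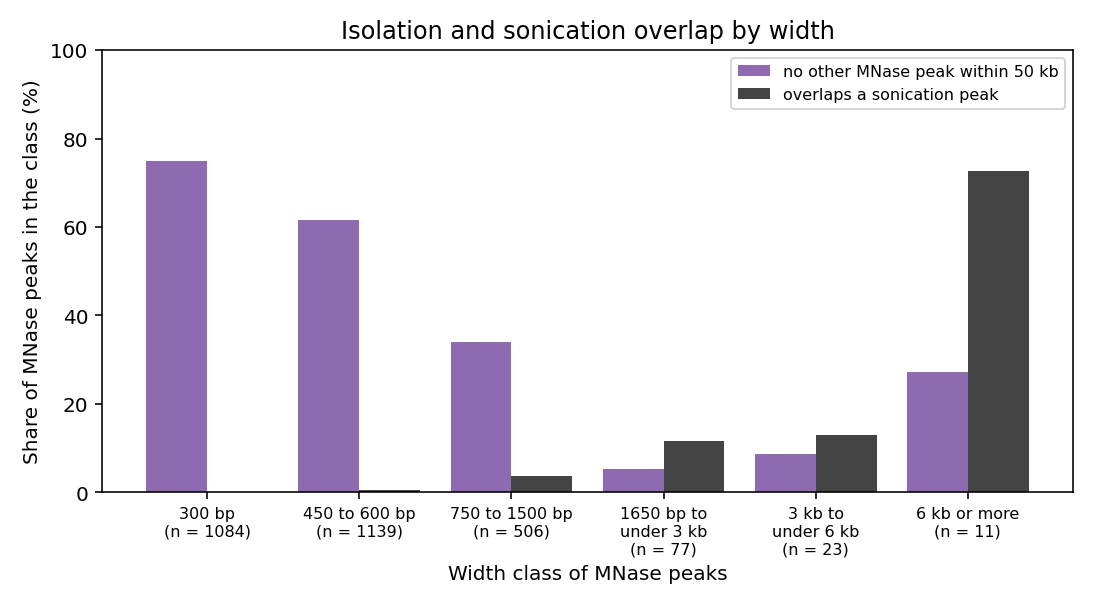
Share in % of MNase peaks in 6 width classes that had no other MNase peak within 50 kb (purple) and that overlapped a sonication peak (dark grey), with the number of peaks per class below the axis. Shares of peaks without a neighbour went down from 74.9% at 300 bp to 5.19% in the class that ends just under 3 kb, and the 27.3% at 6 kb or more is made up of Sfi1, Rn18s-rs5 and Hjurp.

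Lists of genes that work with the products of the 3 genes were counted beside all genes. Of all 49214 genes used, 3.74% had an MNase peak within 5 kb and 2.27% a sonication peak. Of 14 centrosome and centriole genes, 1 had an MNase peak, of 300 bp at Pcnt, which encodes the scaffold protein pericentrin, and 1 had a sonication peak, of 300 bp at Cep63, a gene of centriole duplication. The 4 centrin genes Cetn1, Cetn2, Cetn3 and Cetn4 had none. Of 14 genes of the centromere and of CENP-A loading, Cenpa and the loading factors Mis18a and Oip5 included, 0 had a peak in either list. For lists of this length the background gives 0 or 1 gene, so these counts do not tell the lists from other genes.

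For Rn18s-rs5, 9 of 12 listed genes were found in the gene table, all but Rn5s of them genes of RNA polymerase I and its factors, and 0 of the 9 had a peak within 5 kb in either list. The names not found, Rn45s, Rn18s and Rn28s1, are those of the ribosomal RNA genes most like Rn18s-rs5, so these are not covered by the count. Among the 62 records of the table annotated as ribosomal RNA, 2 had an MNase peak and 0 a sonication peak within 5 kb. Of the 69 records named as 5S ribosomal RNA, another repeated gene, 1 had an MNase peak and 0 a sonication peak. Of all genes, 3.74% had an MNase peak at that distance and 2.27% a sonication peak. These counts thus do not tell the records from other genes. The groups were drawn by annotation and by name, so they can share records.

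Of 16 listed loci with many copies or tandem repeats, 11 were found in the gene table, Dux, Sly, Rbm31y, Ssty1 and Ssty2 not among them. Of these 11, 0 had an MNase peak within 5 kb, which is what the background gives for so few genes. A sonication peak was found at 3, above the 2.27% of all genes. These were Firre, a long non-coding RNA gene on the X, with 1 of 900 bp, Mid1, a ubiquitin ligase gene on the X, with 3 of up to 750 bp, and Sp100, a nuclear body protein gene on chromosome 1, with 1 of 300 bp. No share over X genes alone was counted, so the part of the X in this difference was not tested. Within 50 kb, the window used for the 3 genes, 10.5% of all genes had an MNase peak and 7.41% a sonication peak. At that distance an MNase peak was found at 2 of 14 centrosome genes, 1 of 14 centromere genes, 1 of 9 genes of the ribosomal list and 1 of 11 multicopy or repeat loci. A sonication peak was found at 2, 1, 0 and 7 genes of these lists, in the same order. Of the 85 developmental regulators used for contrast, 66 had an MNase peak within 5 kb and 31 a sonication peak. The shares over all genes at that distance were 3.74% and 2.27%. This list was chosen with earlier results of these data known, so its counts are a description. Neighbouring Hox genes also count the same peak, as Hoxd10 and Hoxd11 do with that of 12.9 kb. The authors' 11 broad domains of enrichment included none on chromosomes 1, 11 or 17, so 0 lay over any of the 3 genes.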

How the data were processed

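The authors deposited 1 peak list per experiment and 1 list of broad domains. Per the file headers, the lists hold peak boundaries in bp; their value columns are empty, and the MNase list names SeqMonk as the origin of its peaks. Bowtie 0.12.9, MACS2, bcl2fastq and the build mm10 come per the submitters' processing notes, with no role or order. What part the control libraries had in the calls is not given. Peak boundaries lie on a grid of 150 bp with a smallest width of 300 bp.

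Peaks were joined to 49214 RefSeq gene spans of the same assembly (autosomes and X, 340 records starting within the first 3 Mb left out); of the listed names, 8 were not found there. A peak counted as in a gene, or as shared by both lists, at an overlap of 1 bp. Overlap and distance steps were tested on simulated data. Python 3.11.15, pandas 2.3.3 and SciPy 1.17.1 were used. Genes named are the 3 members, genes at peaks of 6 kb or more and at the widest peaks below it, genes within 50 kb of the members, and listed genes with a peak. Some listed genes without a peak or not found are named as well, the centrin genes, Cenpa, Mis18a, Oip5 and Rn5s among them. Alyref2, Tshz3, Gm9637 and the ribosomal RNA records were chosen after their values were seen. Members and gene lists were chosen with earlier results of these data known. No test between libraries could be made. One further gene of the centromere list is not reported here and is left out of every count.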

Additional observations from a re-analysis of the deposited data

How the results depend on the processing

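Of 70 recomputed values, 53 stayed within 1.5 times the reported one. At Sfi1, the 3 MNase peaks within 50 kb became 1 with a flank of 5 kb and 1 in the gene body. With a flank of 100 kb, Sfi1 and Hjurp each had 1 sonication peak in place of 0, and Rn18s-rs5 kept 0. MNase peaks of 6 kb or more numbered 11 as reported and 29 with peaks up to 1 kb apart merged. At a threshold of 8 kb there were 7, which leaves out Rn18s-rs5 and Hjurp by construction. That threshold also leaves out the developmental peaks at Nr2f2 and Evx2. Merging left the 3 wide peaks at their widths, while Sfi1 came 2nd in width with adjoining peaks merged and 7th with peaks up to 1 kb apart merged, so its first rank depends on where the list splits the Hox clusters. Counted within 200 kb, the highest number of other MNase peaks at the 3 genes was 3, at Sfi1, against up to 52 at developmental genes. Of the 3 at Sfi1, that from 3387301 to 3387750 lay on the side of the wide peak away from the chromosome start. Counted within 10 kb, the developmental peaks had 2 to 8 others. The overlap with sonication peaks, 0 of 3 and 8 of 8, was the same with a stricter limit on the covered share of a sonication peak and when it could lie within 1 kb. The other 7 changes were gene lists counted within 50 kb in place of 5 kb, among them the multicopy or repeat loci, with a sonication peak at 7 in place of 3 of 11 and an MNase peak at 1 in place of 0. Without depth or signal per library, no peak could be weighed by its reads. No paired analysis was possible because each list pools its libraries, and for the same reason no replicate could be left out.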

Other observations

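In the first 500 kb beyond the 3 Mb gap, 17 MNase peaks lay on 6 chromosomes and 6 sonication peaks on 6 chromosomes. Chromosome 9 held 6 of the MNase peaks, from 2999851 to 3032700 and of at most 900 bp. The first of these starts just before 3 Mb and runs past it. Chromosome 11 held 4, the 16.2 kb peak in Sfi1 among them. These values were looked up after the position of the Sfi1 peak was seen. No other windows of this length were counted, so whether these numbers are high was not tested.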
